A study of Mus musculus with 4 samples.

Results

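Clustered YAP sites of mouse epidermis were studied here, that is, YAP peaks that lie close enough together on a chromosome to form stitched domains. Neighbouring peaks of the wild-type list were joined when the gap between them was at most 12.5 kb, and the clustered sites were defined by domains that held 5 or more such peaks. This gave 9708 WT peaks in 1405 domains, of 36576 WT peaks in all (26.5%). They were overlapped by 4579 of the 14879 KO peaks. The WT group was epidermis of adult mice of 18 to 25 weeks with the genotype Bmal1 WT, and the KO group the same tissue and age with the genotype Bmal1 KO, written Bmal1cKO in the treatment protocol. Both were taken at Zeitgeber time 4 (ZT4), 4 h after lights on, and neither carried another agent or allele per the labels. The sources used here do not say in which cells Bmal1 was deleted. Chromatin immunoprecipitation with an anti-YAP antibody and sequencing (ChIP-seq) gave 1 pooled peak list per genotype. The labels do not say what was pooled, and no value below has a replicate error or a p-value. Intervals are 95% exact binomial intervals that cover counting error over sites only. In tissue, binding in fewer cells and weaker binding per cell cannot be told apart. With 1 list per genotype, a difference in immunoprecipitation or library quality cannot be told apart from the genotype either.

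YAP is a transcriptional co-activator of the Hippo pathway that does not bind DNA itself and reaches chromatin through TEAD proteins, often beside AP-1 factors at enhancers far from promoters. In epidermis it is known for supporting growth and repair of the basal layer. Regions in which many sites of a factor lie close together are often found around genes that define a cell type, and joining neighbouring sites is the usual way to list them. BMAL1, encoded by Arntl, is the core activator of the circadian clock.

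The domain around Sbsn, Dmkn and Krtdap carries clustered sites on several promoters at once, and its sequences are shown because each of these promoters holds the same motif. The 3 genes encode secreted proteins of the differentiating epidermis, suprabasin, dermokine and keratinocyte differentiation-associated protein. Each sequence gives the 250 bases before an annotated gene start, from RefSeq on GRCm38.p6 (mm10), on the strand of the gene, with the AP-1 motif TGANTCA in capitals. The Amotl2 sequence has the TEAD motif in capitals, GGAATG or on the other strand CATTCC. Amotl2 encodes an angiomotin that binds YAP and is itself a target of YAP. The promoters lie at chr7:30751221-30751470 (Sbsn), chr7:30763506-30763755 and chr7:30776155-30776404 (Dmkn, 2 starts), chr7:30787655-30787904 (Krtdap) and chr9:102717554-102717803 (Amotl2), all on the plus strand.
Sbsn: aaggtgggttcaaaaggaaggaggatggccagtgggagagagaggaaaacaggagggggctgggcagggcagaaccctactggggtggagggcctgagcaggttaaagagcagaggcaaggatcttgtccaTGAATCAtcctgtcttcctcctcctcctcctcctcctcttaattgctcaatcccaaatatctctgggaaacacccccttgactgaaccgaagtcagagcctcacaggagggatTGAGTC
Dmkn, first start: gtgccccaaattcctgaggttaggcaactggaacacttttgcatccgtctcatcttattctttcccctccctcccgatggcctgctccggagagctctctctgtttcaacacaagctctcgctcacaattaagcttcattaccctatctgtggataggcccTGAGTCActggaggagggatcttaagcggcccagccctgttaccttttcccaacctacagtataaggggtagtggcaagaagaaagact
Dmkn, second start: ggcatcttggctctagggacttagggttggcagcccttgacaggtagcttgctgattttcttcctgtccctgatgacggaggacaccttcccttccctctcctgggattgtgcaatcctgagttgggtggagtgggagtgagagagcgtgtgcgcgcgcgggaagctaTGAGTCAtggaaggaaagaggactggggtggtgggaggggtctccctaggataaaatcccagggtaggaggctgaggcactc
Krtdap: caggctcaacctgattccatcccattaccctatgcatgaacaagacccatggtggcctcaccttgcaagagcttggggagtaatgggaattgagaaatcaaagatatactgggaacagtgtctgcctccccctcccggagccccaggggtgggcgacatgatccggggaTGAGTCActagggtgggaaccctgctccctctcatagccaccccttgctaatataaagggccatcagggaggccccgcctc
Amotl2: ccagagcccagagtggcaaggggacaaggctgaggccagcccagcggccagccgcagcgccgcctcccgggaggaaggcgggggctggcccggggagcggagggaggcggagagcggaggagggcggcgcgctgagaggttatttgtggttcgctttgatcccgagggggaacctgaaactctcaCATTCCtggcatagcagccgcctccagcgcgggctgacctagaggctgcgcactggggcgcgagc
A WT summit lay inside each of these 5 windows. The Sbsn promoter had 112 WT and 55 KO reads at its summit, the 2 Dmkn promoters 147 and 73 and then 91 and 48, and the Krtdap promoter 166 and 84. At the Amotl2 promoter the summit had 207 WT and 130 KO reads. All 5 sites were called in both genotypes, and each held fewer reads in KO. Reads are the whole numbers at the highest point of a peak, recovered from the authors' fold and p, with the same even-spread background of 9.63 reads in both lists. The AP-1 motifs start 119 and 6 bases before the Sbsn start, 89 and 82 before the Dmkn starts and 81 before the Krtdap start, and the TEAD motif 65 before the Amotl2 start. The second Sbsn motif ends 1 base past the printed window.

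The domains were short stretches with a few peaks each. They spanned a median of 25.0 kb (interquartile range 18.5 to 34.1 kb, from 5.72 to 119 kb) and 39.1 Mb in all, of which the member peaks covered 6.42 Mb. The median domain held 6 WT peaks and the largest 24. Neighbouring members lay a median of 2958 bp apart. The longest gap inside a domain was 12494 bp and the shortest gap left unjoined 12501 bp. Just inside the limit there were 528 domains of 5 peaks, whose members had a median of 63 WT reads, and just outside it 879 groups of 4 peaks with a median of 62. The number of domains rests on these settings. It was 509 with a joining gap of 5 kb, and 199 with the WT list shortened to the 14879 best-scoring peaks. Chromosome 19 had the highest share of its WT peaks in domains, 37.1%, and the X chromosome the lowest, 3.65%, with 3 domains.

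**Figure D1:**
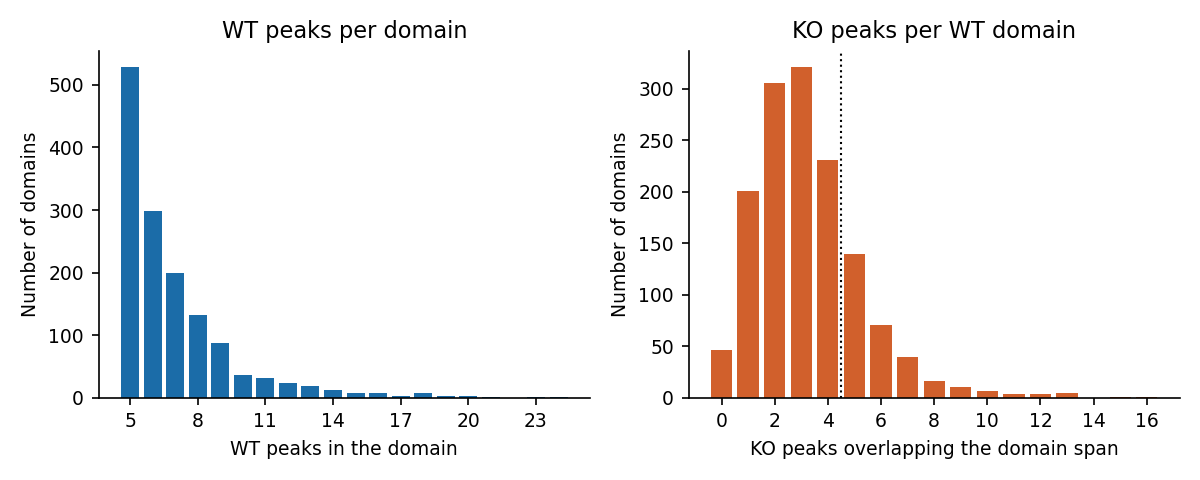
Number of stitched domains by how many WT peaks they hold (left, x axis from 5 by the rule) and by how many KO peaks overlap their span (right). The dotted line marks 5 KO peaks, which 300 of 1405 domains reach.

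Clustered sites were somewhat stronger in WT than other sites. The median member had 65 WT reads, against 61 for WT peaks in groups of 2 to 4 and 58 for single WT peaks. Strong sites, with at least 120 reads, made up 13.7% of members, 10.4% of grouped peaks and 6.42% of single peaks. Members held 28.9% of the summit reads above background, summed over all WT peaks, with 26.5% of the peaks. The local background under them was also higher, with a median of 11.5 reads against 10.4 under single peaks. The part of that background in the read counts was not tested. Since WT calls chose the members, these WT values are a description.

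The KO list, which is shorter than the WT list, held a peak at part of the clustered sites. Of the 9708 members, 4407 shared 1 bp or more with a KO peak and are called kept below (45.4%, interval 44.4 to 46.4), beside 39.1% of all WT peaks. The kept share was 39.4% (38.6 to 40.1) for peaks in groups of 2 to 4 and 33.2% (32.3 to 34.0) for single peaks, so it was highest for clustered sites. Among groups of 4 peaks it was 42.5%, in domains of 5 peaks 43.1%, and in domains of 12 or more 49.8% (47.1 to 52.6). Neighbouring sites may not be independent, so these intervals may be too narrow, and no test was run. The level rests on the length of the WT list. With that list shortened to the number of KO peaks before joining, 82.3% of 1178 members were kept, beside 77.4% of other peaks.

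The gradient was small between sites of the same strength. Other WT peaks with the same reads, taken in bins of 5 reads, had a kept share of 44.3% when weighted like the members, against the members' own 45.4%, a difference of 4407 against 4297 sites. At 70 to 79 WT reads 56.6% of members were kept, 55.5% of grouped and 52.4% of single peaks. At 80 to 99 reads the shares were 82.4%, 81.2% and 77.7%. Under 50 reads they were 3.26%, 2.94% and 3.21%, and all 618 members with at least 150 reads were kept. The order of members and other peaks of like reads turned with the overlap rule: with 50% reciprocal overlap 36.1% of members were kept, below the 37.2% of other peaks of the same reads. With the KO summit required within 200 bp they were 43.8% and 43.2%.

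**Figure D2:**
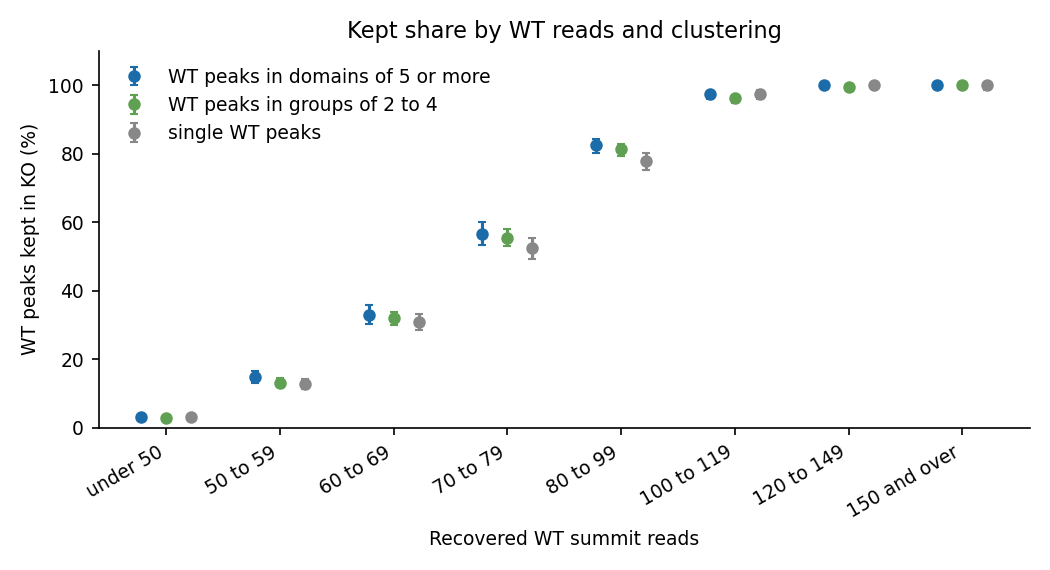
Share of WT peaks kept in KO (y axis, percent) by recovered WT summit reads (x axis, bands) for members, for WT peaks in groups of 2 to 4 and for single WT peaks, with 95% exact binomial intervals. The 3 classes lie close together in each band, from about 3% under 50 reads to 100% at 150 and over.

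Strong clustered sites, picked by their WT reads alone, held fewer reads in KO. A choice on the WT side favours a lower KO value, so the direction is a description. All but 1 of the 1331 members with at least 120 WT reads were kept, and the median summit of these 1330 had 147 WT and 85 KO reads. After subtraction of the background, KO summits had a median of 0.545 of the WT reads, which is -0.87 on the log2 scale (interquartile range over sites -1.05 to -0.73). All 1330 were lower in KO, as were 3685 of the 3686 strong kept WT peaks in all. Grouped peaks had a median of -0.88 and single peaks of -0.90. A log2 ratio below -1 was found at 408 strong kept members, 30.7%, beside 30.7% of all strong kept WT peaks. The SD of the log2 ratio over these members was 0.245, and counting error alone gives 0.219. On the authors' fold the median log2 ratio was -0.65.

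Most domains kept some but not all of their sites in KO. At least 1 member was kept in 1359 of 1405 domains (96.7%, 95.7 to 97.6), while 46 kept none and 14 kept every one. Over 50% of members were kept in 501 domains and exactly 1 in 209. The span of 852 domains was overlapped by 3 or more KO peaks and that of 300 (21.4%, 19.2 to 23.6) by 5 or more. With the WT list shortened to the number of KO peaks, 68.8% (61.9 to 75.2) of the 199 domains then found had 5 or more, so this share also rests on list length. Joined by the same rule, the KO peaks gave 229 domains of their own, of which 219 (95.6%) overlapped a WT domain. Since nearly all KO peaks of the whole list overlapped a WT peak, this share was largely fixed in advance. KO peaks inside WT domains were nearly all at WT sites: 12 of 4591 overlapped no WT peak. Over the whole KO list it was 153 of 14879 (1.03%).

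Within a domain, the share of sites called again went down with their rank in WT reads. The strongest member was kept in 1304 of 1405 domains (92.8%), the next in 75.8%, that of rank 3 in 55.3%, of rank 4 in 36.4%, and members of rank 5 and over in 18.3%. Their median WT reads were 131, 93, 74, 61 and 49. Other WT peaks with the same reads were kept at 92%, 75.3%, 54.1%, 35.1% and 17%. Members at the 2 edges of a domain were kept at 43.5% and inner members at 46.2%, beside 42.6% and 44.9% for other peaks of like reads. Log2 ratios of strong members also varied about as much within a domain as over all: the SD within domains was 0.234 over 813 members of 332 domains, against 0.219 from counting. The number kept per domain, less the number given by peaks of like reads, had an SD of 0.875 peaks, where sites kept independently of each other would give 0.831.

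**Figure D3:**
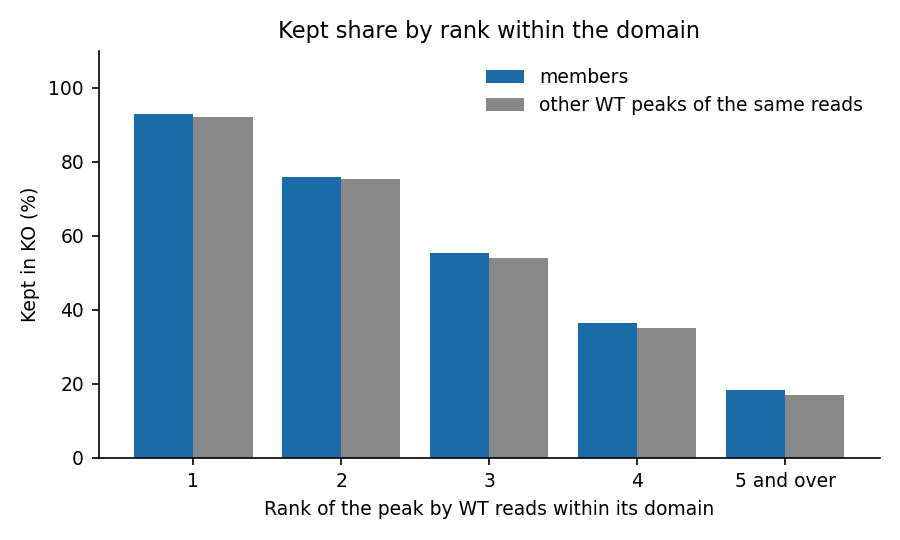
Share of members kept in KO (y axis, percent) by their rank in WT reads within the domain (x axis), beside other WT peaks weighted to the same reads. The share goes from 92.8% at rank 1 to 18.3% at rank 5 and over, and the paired bars are close at each rank, with 92% and 17% for the other peaks at both ends.

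Several of the 20 domains with the most WT peaks lay at genes of the differentiating epidermis and of its junctions. The domain with most peaks, 24, spanned 76.2 kb of chromosome 15 from 101327197 to 101403357 around Krt80, a type II keratin of differentiating keratinocytes, and its far end lay nearest to Krt7. It kept 12 peaks. Its strongest member, from 101336203 to 101337443, 11672 bp outside the Krt80 span, had 261 WT and 191 KO reads, a log2 ratio of -0.47. Nearby members had 212 and 147 reads (-0.56) and 217 and 128 (-0.81). Another strong member, 377 bp from the gene, had 185 and 108 reads. The 12 members that were not called in KO had 34 to 91 WT reads, and the 12 kept ones 43 to 261, so the 2 sets overlap.

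The Dsp domain, on chromosome 13 from 38070366 to 38171314, held 23 WT peaks over 101 kb, 14 of them kept. Dsp encodes desmoplakin, which ties desmosomes to keratin filaments. The strongest member lay inside the gene with 209 WT and 131 KO reads (-0.72). At the other end of the domain, nearest to Riok1, a member had 194 and 118 reads (-0.77), and a member 32646 bp before Dsp had 133 and 63 (-1.21). The first 5 members were all kept, and none of the last 2, with 38 and 44 WT reads. Pkp1, another desmosome gene, had 19 peaks with 11 kept. Its strongest site, inside the gene, had 142 WT and 78 KO reads.

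The Sbsn domain, on chromosome 7 from 30747711 to 30805043, held 19 WT peaks in 57.3 kb, nearest to Sbsn, Dmkn, Krtdap and Ffar2. Of these 12 were kept, and 5 were strong. The strongest member had 185 WT and 94 KO reads. The median log2 ratio of its kept members was -1.14 (from -1.42 to -0.83), at the lower end of the 20 domains with most peaks, whose medians ran from -1.24 at Nr1d1 to -0.75 at Krt80 and Cebpb.

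The longest domain lay around Ets2, a transcription factor of the ETS family, with 21 WT peaks over 119 kb of chromosome 16 from 95651398 to 95770110, all nearest to Ets2. It kept 14 peaks, and 9 of its members were strong. The strongest, 42777 bp outside the gene, had 227 WT and 186 KO reads, a log2 ratio of -0.30, the highest of this domain. Another distal member, 33629 bp outside, had 206 and 125 reads (-0.77), and one on the other side of the gene had 205 and 117 (-0.86). Inside the gene span, 2 strong members had 155 and 83 (-0.99) and 145 and 81 reads (-0.92). The site at the Ets2 promoter, with 50 WT reads, was not called in KO.

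At Amotl2 10 of 17 members were strong, more than in any other domain, and 12 were kept. The domain covered 70.6 kb of chromosome 9 from 102709440 to 102780088, and all its members were nearest to Amotl2. Besides the promoter site given above, a member 4119 bp from the gene had 205 WT and 130 KO reads (-0.70). A run of 3 members between 36999 and 41135 bp from the gene had 149, 149 and 148 WT reads and 80, 94 and 82 KO reads. The outermost member, 46212 bp away, had 129 and 56 reads (-1.36), the lowest ratio in the domain. The 5 members that were not called had 32 to 67 WT reads, below every kept member, which had 81 or more.

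The Socs3 domain, on chromosome 11 from 117923242 to 118008171, held 21 WT peaks with 11 kept and reached into Pgs1. Socs3 encodes an inhibitor of JAK-STAT cytokine signalling. Its strongest member, 2392 bp from the gene, had 190 WT and 91 KO reads (-1.15), and a member 16137 bp away had 137 and 65 (-1.20). Of 4 neighbouring members between 29696 and 34978 bp away, with 106 to 113 WT reads, each was kept with 52 to 62 KO reads. The site on the Socs3 promoter, with 85 WT reads, was not called in KO, and its window held neither motif.

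**Figure D4:**
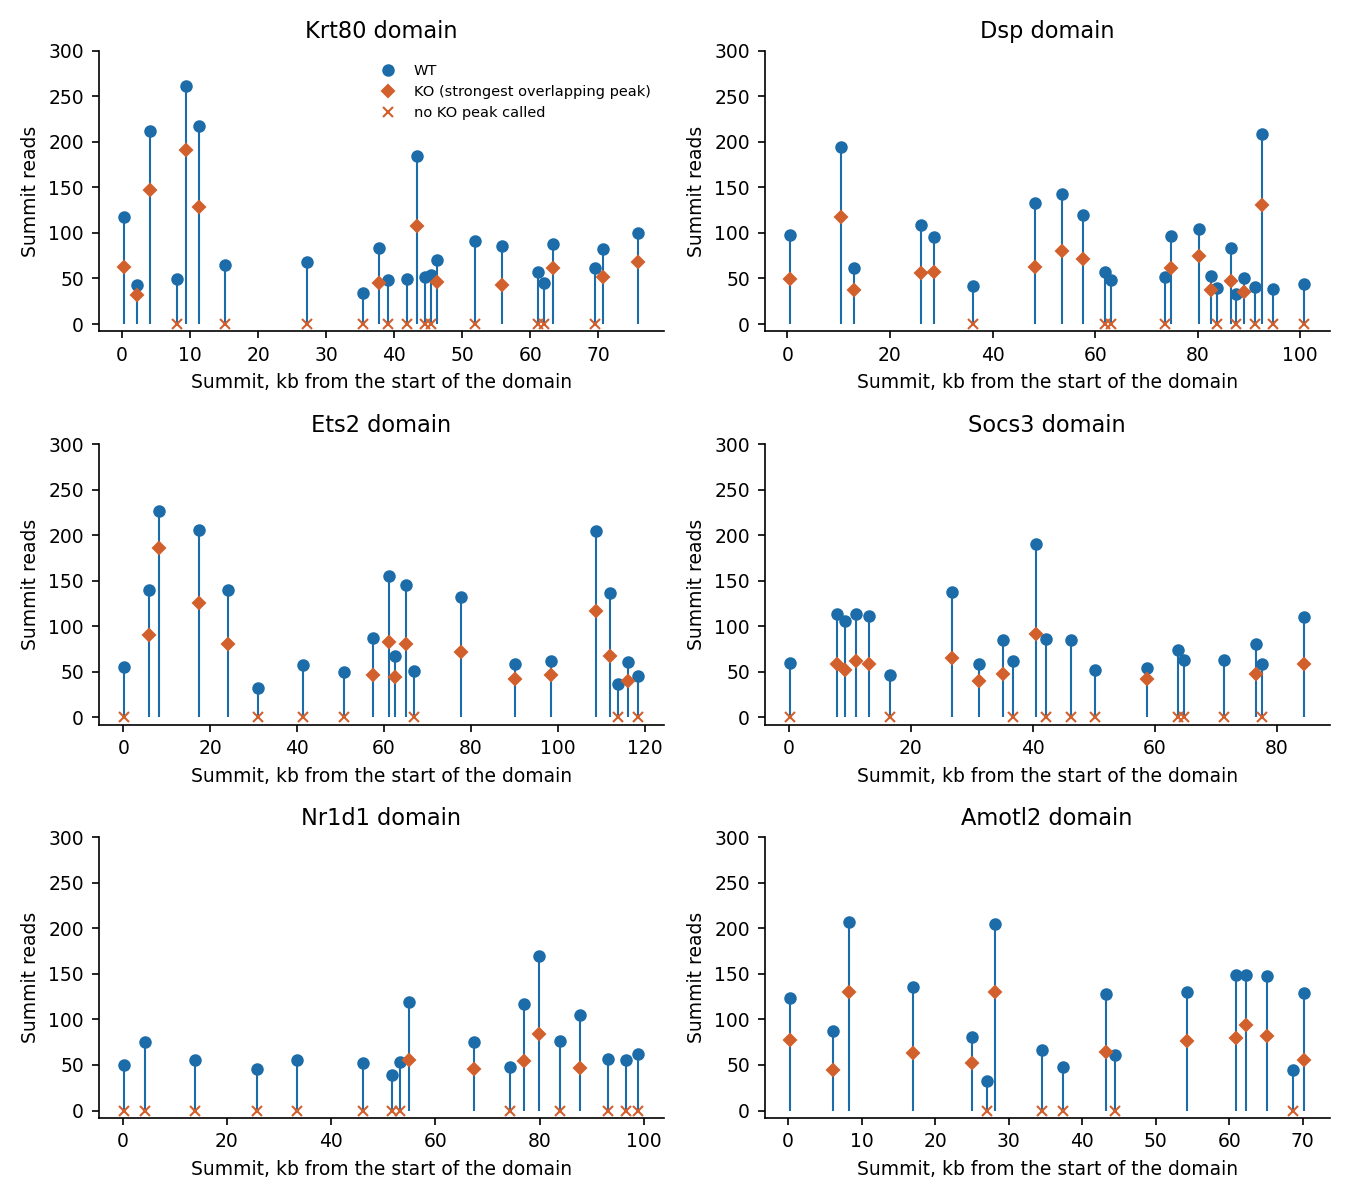
Summit reads of every WT member (circles) and of the strongest overlapping KO peak (diamonds) by distance from the start of the domain, in kb, for the Krt80, Dsp, Ets2, Socs3, Nr1d1 and Amotl2 domains, with members not called in KO marked by crosses at 0. KO reads lie below WT reads at each kept member shown, and the crosses sit mainly under the shorter WT lines.

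Of the 20 domains with most peaks, the one named after Nr1d1 had the lowest kept share and the one at Amotl2 the highest. In the former, 5 of 18 members were nearest to Nr1d1, of which 3 were kept, and the others were nearest to Psmd3, Csf3, Med24, Thra and Msl1. As many members were nearest to Thra as to Nr1d1, and both genes held members inside their span. The name was therefore settled by alphabetical order, and the domain is equally one of Thra. Nr1d1 encodes REV-ERBα, a clock repressor and a target of BMAL1. The domain, on chromosome 11 from 98695858 to 98795329, held 18 WT peaks from Psmd3 to Msl1, of which 5 were kept, where other peaks of like reads would give 7.12. The member 345 bp outside Nr1d1 had 170 WT and 84 KO reads (-1.11), one inside the gene had 117 and 54 (-1.27), and one 8171 bp away had 105 and 47 (-1.35). In Thra, a thyroid hormone receptor gene, a member had 119 and 56 reads (-1.24). The first 8 members along the domain, with 39 to 75 WT reads, were not called in KO. For Amotl2 the same comparison gave 12 kept against 12.17.

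Other domains among the 20 with most peaks held 17 to 20 WT peaks and kept 7 to 11. At Pou3f1, a POU-domain transcription factor gene, 10 of 20 peaks were kept, with 140 WT and 90 KO reads at the strongest. At Ahnak, which encodes a very large scaffold protein, 7 of 20 were kept, with 211 and 131 reads. The domain nearest to Cebpb, a transcription factor of differentiating keratinocytes, kept 10 of 17, but 4 of its peaks only were linked to Cebpb, at least 84519 bp outside the gene, and the others to Ptpn1 or to no gene. Domains at Frmd8 (8 of 20), Iffo2 (8 of 19), Cd9 (8 of 18), Shb (7 of 18), Tex44 (10 of 18) and Mapkapk3 (10 of 17) fall in the same range. At Irf2bp2, Hnrnpl and Btg2 11, 8 and 10 of 18 peaks were kept, but 7, 5 and 5 with 50% reciprocal overlap.

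Among the 378 domains of 8 or more WT peaks, the kept share ran from 0 to 100%. The domains named here were picked as the extremes of this range, and each holds few sites. Over all domains, kept less expected peaks had an SD of 0.875, where sites kept independently of each other would give 0.831. Every one of 8 members was kept at Kmt2e, a gene of a chromatin regulator, at Dlgap4 and at Barx2, a homeobox gene, and 7 of 8 at Wwc1, whose product KIBRA acts upstream in the Hippo pathway, and at Myrfl. Other peaks with the same reads would give 7.71 at Kmt2e, 5.69 at Dlgap4 and 4.73 at Barx2. The Kmt2e members had a median of 127.5 WT reads, the Barx2 members 82. At the other end, none of 9 members was kept at Lzts2, with 39 to 63 WT reads, none of 8 at Chd9, with 38 to 88, and none of 8 at Fam120a, with 36 to 93. Peaks of like reads would give 1.15, 1.66 and 1.53. Bcl3, which encodes an IκB-like regulator of NF-κB, and Tnfsf18 each kept 1 of 9, against 2.87 and 3.04.

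The 265 domains with at least 5 kept members also ranked by how far KO reads were reduced. Median log2 ratios were lowest at Kazn (-1.32), Rgs2 (-1.28), Gcnt2 (-1.26), Nr1d1 (-1.24) and Abcc3 (-1.24). The strongest member at Rgs2, a gene of a regulator of G protein signalling, had 179 WT and 76 KO reads, and that at Gcnt2, a glycosyltransferase gene, 142 and 65. They were highest at Ccl20 (-0.51), a chemokine gene, Rbp2 (-0.53), Pfn1 (-0.56), Barx2 (-0.58) and Aldh3a2 (-0.60), a gene of fatty aldehyde oxidation. The strongest member at Ccl20 had 129 WT and 77 KO reads, and that at Pfn1, which encodes the actin-binding profilin, 113 and 81. A weak site enters these medians only when it was called in KO, which sets a floor to its ratio, and the Rbp2 members had 39 to 68 WT reads. The Ccl20 domain had 5 kept members but 4 KO peaks in its span. At least 1 KO peak was therefore paired with more than 1 member, and the Ccl20 median rests partly on that. The highest KO value there, 84 reads, was not at the strongest WT member.

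Genes of the epidermis often had a domain. Of 21631 protein-coding genes 2056 were nearest to a member within 100 kb (9.5%), and of the 11365 genes with any WT peak 18.1%. In the lists below, chosen with earlier results of these data known, the share was 65.6% (21 of 32) for differentiated keratinocyte genes, 63.3% (19 of 30) for keratinocyte transcription factors and 62.5% (15 of 24) for genes of basal keratinocytes and hemidesmosomes. It was 52.6% (10 of 19) for AP-1 genes, 47.8% (11 of 23) for EGF receptor and MAPK feedback genes and 45.5% (15 of 33) for cytoskeleton and adhesion genes. Cytosolic ribosomal protein genes were near the background, with 11.5% (3 of 26). The lists share genes and domains, so their shares are not independent. Klf4 and Grhl3, for example, are in both the differentiated and the transcription factor list, and Egfr in both the basal and the EGF receptor list. Krt1 and Krt77 lie in the same domain. Genes with a domain had a median span of 21.1 kb, genes with a WT peak and no domain 27.2 kb, and genes with no WT peak 9.87 kb. Over all coding genes it was 17.3 kb. In the lists, in the order given above, it was 21, 29.7, 55, 10.5, 15.1, 66.9 and 3.74 kb. The part of gene length in the list shares was not tested. The list shares rest on the length of the WT list: over all listed genes 33.2% had a domain, and 8.56% with the WT list shortened to the number of KO peaks.

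**Figure D5:**
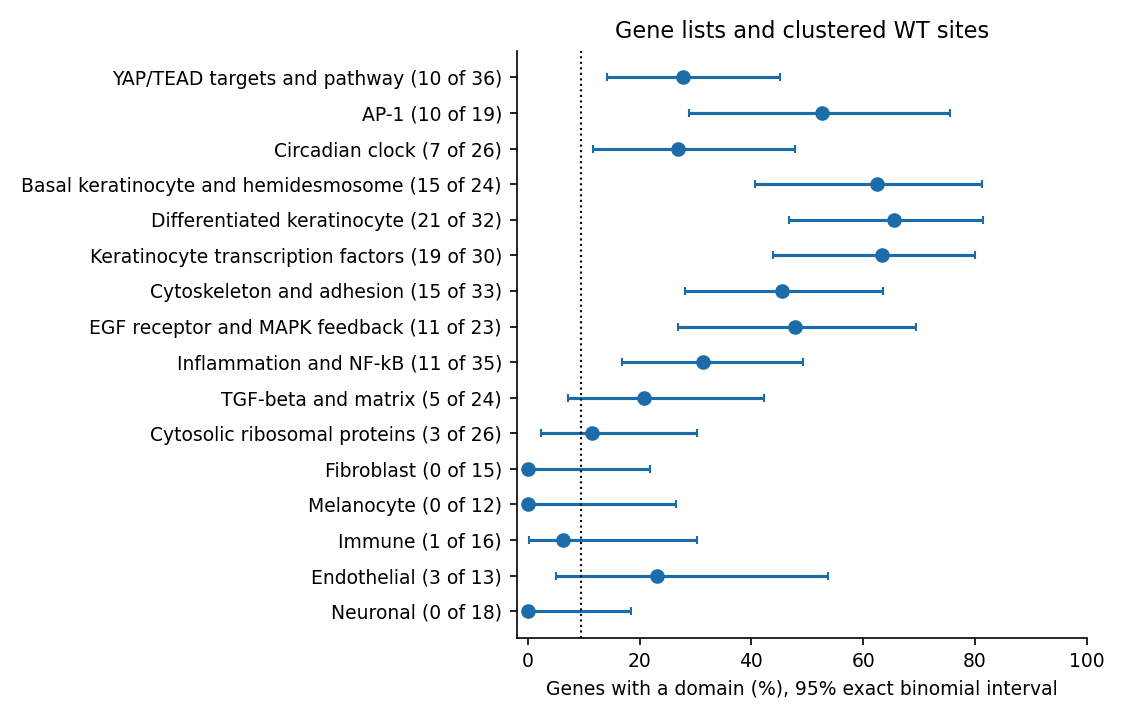
Share of the genes of each list that are nearest to a clustered WT site (x axis, percent, with 95% exact binomial intervals), with the number of genes in parentheses. The dotted line is the 9.5% of all protein-coding genes, which the keratinocyte lists exceed. The fibroblast, melanocyte and neuronal lists are all at 0, with intervals up to 21.8%, 26.5% and 18.5% that include the line. Endothelial genes stand at 23.1% (3 of 13).

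Markers of other cell types of skin were looked up in the same way, beside the 9.5% of all coding genes. No domain was linked to any of 15 fibroblast, 12 melanocyte or 18 neuronal genes. Their intervals reach 21.8%, 26.5% and 18.5%, so these lists are too short to tell 0 from 9.5%. Among 16 immune genes 1 had a domain, Epcam, which is also expressed by epithelial cells. Among 13 endothelial genes 3 had one (23.1%), Vwf, whose only clustered site belonged to the Cd9 domain, Pecam1 and Eng. The Pecam1 domain kept 2 of 8 and its strongest member had 87 WT and 40 KO reads.

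In the basal list, Plec, Egfr, Col17a1 and Cdh3 had the domains with most peaks. Plec encodes plectin and Col17a1 collagen XVII, both of the hemidesmosome. At Plec, a member 12190 bp outside the gene had 265 WT and 214 KO reads, a log2 ratio of -0.32. At Egfr, the EGF receptor gene, the strongest of the members had 194 and 119 reads (-0.75), and at Col17a1 148 and 87 (-0.84). At Cdh3, which encodes P-cadherin, it had 245 and 183 (-0.44). Over the list 122 members were linked and 55 kept (45.1%, 36.1 to 54.3), beside 43.2% for other peaks of like reads. For differentiated keratinocyte genes 83 of 154 linked members were kept (53.9%, beside 50%).

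Among keratinocyte transcription factors, Cebpa kept 3 of 11 peaks in its domain and Trp63, the master regulator of the basal layer, 3 of 9. The strongest member at Trp63, inside the gene, had 189 WT and 117 KO reads (-0.74), and that at Cebpa, 1039 bp outside, 95 and 52 (-1.01). Of all 152 members of this list 46.1% were kept (37.9 to 54.3), beside 40.8% for other peaks of like reads.

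AP-1 genes, whose products often share sites with TEAD, had domains at 10 of 19 genes. At Fos 9 of 15 peaks were kept, with 192 WT and 92 KO reads at the strongest (-1.15), 21814 bp outside the gene. At Atf3 6 of 12 were kept, and the member 273 bp from the gene had 198 and 99 reads (-1.08). At Fosb 4 of 13 were kept, with 197 and 119 at the strongest linked member. The Jund gene lay in a domain of 16 peaks with 5 kept. Its strongest linked site, 2163 bp outside the gene with 127 WT reads, is the 1 strong member of all 1331 that was not called in KO. Over the list 40 of 78 linked members were kept (51.3%, 39.7 to 62.8), beside 51.1% for peaks of like reads.

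Hippo pathway genes and YAP targets had domains at 10 of 36 genes (27.8%). After Amotl2, Crim1 had 9 peaks with 2 kept, and Wwc1 and Ptpn14, which encodes a phosphatase that holds YAP in the cytoplasm, had 8 each with 7 and 4 kept. Strongest members had 159 WT and 89 KO reads at Crim1, 194 and 127 at Wwc1 and 188 and 113 at Ptpn14. Their log2 ratios were -0.91, -0.65 and -0.79. Of 91 linked members of the list 51 were kept (56.0%, 45.2 to 66.4), beside 51.4% for other peaks of like reads.

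Clock genes had domains at 7 of 26 genes (26.9%). Per1, a clock repressor, lay in a domain of 16 peaks with 6 kept, and its strongest linked member, inside the gene, had 190 WT and 112 KO reads (-0.82). At Rora, an activator of Arntl, 3 of 8 were kept, and the strongest linked member, with 103 WT reads, was not called in KO. Dbp, a clock output factor, had 3 linked members, none kept, in a domain of 6. Arntl itself had 15 linked WT peaks, of which 5 formed a domain inside the gene on chromosome 7. These had 115, 121, 40, 71 and 36 WT reads, and those with 115, 121 and 71 were kept, with 73, 54 and 45 KO reads. YAP peaks do not read out the deleted part of Arntl, so they do not check the genotype labels. Over the clock list 18 of 35 linked members were kept (51.4%, 34.0 to 68.6), beside 43.1%.

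The shares of the lists of signalling genes lay between those of the keratinocyte lists and the 9.5% of all coding genes, but with wide intervals. That of TGF-β and matrix genes, 7.13 to 42.2%, includes 9.5%. That of inflammation genes, 16.9 to 49.3%, includes the 18.1% of genes with a WT peak. Those of EGF receptor genes, 26.8 to 69.4%, and cytoskeleton genes, 28.1 to 63.6%, include 62.5%, the lowest keratinocyte share. Inflammation and NF-κB genes had domains at 11 of 35 genes (31.4%), and 42 of 77 linked members were kept (54.5%), beside 48.8% for other peaks of like reads. At Tnfaip3, which encodes the NF-κB inhibitor A20, 6 of 9 were kept, with 205 WT and 122 KO reads at the strongest. At Il1r2, a decoy receptor of interleukin 1, 6 of 9 were kept, with 102 and 65 reads, and at Tnfrsf1a 3 of 9. For EGF receptor and MAPK feedback genes 32 of 76 linked members were kept (42.1%), beside 44.3%. Among them Errfi1, which encodes an inhibitor of the receptor, kept 2 of 9 and Erbb2 3 of 8, while Hbegf, a ligand gene, lay in a domain that kept 9 of 13. For cytoskeleton and adhesion genes 66 of 145 linked members were kept (45.5%, beside 41.9%), with 7 of 15 at Cdh1, the E-cadherin gene, 5 of 14 at Myh9, 7 of 14 at Tiam1 and 5 of 12 at Ablim1. TGF-β and matrix genes had domains at 5 of 24 genes (20.8%), among them the receptor genes Tgfbr2 (3 of 8 kept), Bmpr1a (1 of 8), Acvr1b (4 of 7) and Bmpr2 (3 of 7). The domains of the ribosomal protein genes Rpl18, Rps19 and Rpl3 kept 2 of 6, 2 of 6 and 3 of 5.

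A smaller share of clustered sites than of other sites lay at gene ends. Of members 22.5% (21.7 to 23.4) had their summit within 2 kb of an end of a gene span, of grouped peaks 28.1% and of single peaks 30.2%. Within 1 kb of the start of a protein-coding gene lay 13.0%, 19.6% and 24.2%. Inside gene spans lay 51.2% of members and 54.3% of single peaks, and over 100 kb from any gene 4.32% and 9.46%. Members at coding gene starts were kept at 40.1% (37.3 to 42.9) and those over 10 kb outside any gene at 48.6% (46.6 to 50.6), beside 40.3% and 46.6% for other peaks of like reads. Of 1359 domains on the chromosomes with start annotation used here, 697 had a member within 1 kb of a coding gene start. The members of 782 of all 1405 domains were linked to 1 gene only, and those of 56 to none.

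Promoters under clustered sites and under other sites were compared for AP-1 and TEAD motifs. A member summit fell in 576 of 21045 promoter windows of protein-coding genes, each of 300 bases. TGANTCA, which reads the same on both strands, was found in 9.03% of these (6.82 to 11.7), in 5.42% (4.64 to 6.29) of 3026 windows with the summit of another WT peak and in 7.04% of all windows. Windows that share a domain or a start are not independent, so these intervals are too narrow. The TEAD motif, on either strand, was found in 16.1% (13.2 to 19.4), 15.5% and 13.5%. The median GC content was 61.8%, 62.7% and 56.7%. In the 20 domains with most peaks, 12 windows of 10 genes had a member summit, of which 6 held the AP-1 motif, 1 the TEAD motif and 5 neither. Of the 6, 5 lie in the Sbsn domain, where 2 Dmkn windows are offset by 2 bases and share their motif. A match is a run of letters, not a bound site.

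Some miRNA genes of the epidermis also lay in domains. Of 1005 annotated hairpins on the chromosomes used, 60 lay in the span of a domain (5.97%, 4.59 to 7.62), in 51 domains. No share over other features was computed by the same rule, so this count cannot be called high or low. The examples Mir205 and Mir203 were chosen after their values were seen, as miRNAs known for a role in basal and in differentiating keratinocytes. Their mature sequences from RefSeq (GRCm38.p6) are shown with the seed, bases 2 to 8, in capitals.
mmu-miR-205-5p: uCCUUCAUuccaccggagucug
mmu-miR-203-3p: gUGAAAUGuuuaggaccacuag
The seeds differ. The Mir205 hairpin, at chr1:193507463-193507530 on the minus strand, lay in a domain of 8 peaks with 6 kept that was linked to no protein-coding gene, 581 bp from a member with 166 WT and 82 KO reads. The Mir203 hairpin, at chr12:112130880-112130955 on the plus strand, overlapped a member with 168 WT and 141 KO reads, in a domain of 5 peaks with 4 kept.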

How the data were processed

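YAP ChIP-seq of Bmal1 WT and KO mouse epidermis gave 1 deposited peak list per genotype, and the 2 inputs had no file that was used here. Per the submitters' processing notes, Trimmomatic 0.36, SAMtools 1.5, MACS2 2.1.1 and the build mm10 were used, and the labels used here name no other upstream step. The authors' files hold, for each peak, a score, a fold over background (a ratio), and the −log10 p and −log10 q values. The reads at each summit were solved from the authors' fold and −log10 p, with the scaling of each list searched for (0.6937 for WT, 0.8416 for KO). Whole reads gave back the deposited −log10 p to within 0.002 for 100% of peaks, against 1.77% and 0.518% with the scaling 3% off. Both lists had an even-spread background of 9.63 reads, subtracted before ratios, and read depth beyond this unit is unknown. Summit reads were 28 to 290 in WT and 29 to 223 in KO. The solving and the joining were tested on simulated data.

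WT peaks were joined at gaps of at most 12.5 kb and domains of 5 or more were used. Kept means an overlap of at least 1 bp with a KO peak, and the ratio uses the strongest overlapping KO peak. The numbers of domains and of kept peaks were the same with bedtools 2.31.1. Summits were linked to the nearest RefSeq protein-coding gene span (GRCm38.p6, 21631 genes) within 100 kb. A domain is named by the gene linked to the largest number of its members, which can be a minority. Ties were settled by the shorter distance and then by alphabetical order of the symbols, as for Nr1d1 and Thra. Of the listed genes all but 2, Il36rn and Trdc, matched. Motifs were searched in RefSeq promoter windows of 300 bases in place of summit windows, since no genome was used here. Chromosome 18 was not used for starts, promoters and miRNAs. Python 3.11.15, pandas 2.3.3 and scipy 1.17.1 were used. With 1 pool per genotype no test was run.

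The members and the gene lists were chosen with earlier results of these data known. Named were the 20 domains with most WT peaks, the 5 with highest and lowest kept share (8 or more peaks), the 5 with most and least loss (5 or more kept), up to 4 genes per list with the domains of most peaks, and Arntl. Other overlap rules, list lengths, joining gaps, domain sizes, read limits, backgrounds and gene links were tried. The weighting of other peaks to the members' reads was added after seeing the data.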

Additional observations from a re-analysis of the deposited data

How the results depend on the processing

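Every alternative for the reads of strong clustered sites again chose them on the WT side, so their shared direction is no sign of stability. The median log2 ratio was -0.92 with 100 or more WT reads, -0.81 with 150 or more, -0.80 without background subtraction and -0.65 on the authors' fold, and its SD within domains was 0.213, 0.202 and 0.431 under the last 3 in that order and 0.253 with the KO peak chosen by overlap length. The number of domains was 199 with the WT list shortened to the number of KO peaks, 509 with a gap of 5 kb, 4007 with 3 or more WT peaks and 378 with 8 or more. The kept share of members was 36.1% with 50% reciprocal overlap, 43.8% with the KO summit within 200 bp, 82.3% with the shortened list, 48.1% and 43.9% with gaps of 5 and 20 kb, 43.3% and 46.8% with 3 or more and 8 or more peaks, and 48.5% with WT peaks under 500 bp apart counted as 1. Non-members of the same reads gave 44.3%. The share of domains with 5 or more KO peaks was, in the order of the last 6 of those settings from the shortened list on, 68.8%, 15.7%, 26.5%, 7.74%, 52.9% and 25.4%, and it was 60.6% when 3 KO peaks were enough. The share of listed genes with a domain was 8.56%, 15.8%, 43.9%, 50%, 17.1% and 28.3% in the same order. The share over all coding genes was not computed under these settings. The share of members near a gene end was 21.1% with the shortened list, 24.2% with a gap of 20 kb, 24.5% with 3 or more peaks, 20.6% with near peaks counted as 1, and 15.9% and 36.5% at 1 and 5 kb. In all, 40 of these 87 values lay outside the interval, or beyond 1.5 times the count, of the value reported, and 51 of 200 values of single lists or domains. The cause was not tested. No paired analysis was possible because there was 1 pooled list per genotype. The lists hold called peaks only, so a member not called in KO may still be bound below the calling limit, and 3.26% of members under 50 WT reads were kept.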
